A study of Mus musculus with 9 samples.

Results

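Mitochondrial ribosomal protein genes were taken as every row of the count table whose symbol starts with Mrpl or Mrps followed by a digit, with rows marked as pseudogenes (-ps) left out. This gave 78 of 46078 genes, of which 48 were Mrpl genes and 30 Mrps genes. The rule used names and no measured value. Of the 78 genes, 75 (47 Mrpl and 28 Mrps) passed the filter on low counts and were tested. RNA was profiled at transcript 3′ ends in 9 mouse samples of the C57BL/6J strain. The lymphoma group held 6 samples of T cell lymphoma cells from the thymus, a tumour described by the submitters as driven by MYCN, a transcription factor of the MYC family. The control group held 3 samples of CD4 T cells from the spleen. Each library is named by the number in its label (lymphoma 34, 53, 56, 70, 72 and 86, and CD4 1, 2 and 3), and the promoter or cell type that drives MYCN is not given in the sources used here. The comparison asks how expression in MYCN-driven lymphoma cells differs from that in normal CD4 T cells.

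The mitochondrial ribosome, or mitoribosome, translates the few messenger RNAs encoded by mitochondrial DNA, whose products are subunits of the oxidative phosphorylation complexes. All of its proteins are encoded in the nucleus, made in the cytosol and imported, where they assemble with the rRNAs mt-Rnr1 (small subunit) and mt-Rnr2 (large subunit) that are transcribed inside the organelle. Many of these proteins have a counterpart in the bacterial ribosome, and others were added in the mitochondrial lineage. Proliferating T cells are known to build mitochondria, and MYC family proteins are known activators of ribosome and mitochondrial biogenesis genes in many cell types.

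The gene counts summed to 11170704 to 15769679 per lymphoma library and to 8099960 to 10808828 per CD4 library. The mouse gene Mycn had 0 to 3 counts in the lymphomas and 0 to 6 in CD4, so the driver could not be used as a check of the groups. Levels are given as counts per 1000000 counts of the scaled library (CPM). The T cell gene Cd3e lay at 150 to 217 CPM in lymphoma and 138 to 192 CPM in CD4. Cd4 itself lay at 6.04 to 71.9 CPM in lymphoma and 199 to 263 CPM in CD4. Cd8a lay at 29.4 CPM in lymphoma 53 and at 0.0645 to 1.53 CPM in the other lymphomas. In the CD4 libraries Cd8a lay at 25.6 to 31.8 CPM. The CD4 libraries also held B cell RNA. Summed over 20 B cell markers the level was 5766 to 7801 CPM in CD4 and 441 to 619 CPM in lymphoma, with 0 to 2 markers at 0 counts in each lymphoma and none at 0 in CD4. The 20 myeloid markers summed to 108 to 2378 CPM in lymphoma and 1277 to 1495 CPM in CD4, with at most 1 marker at 0 in a library. Erythroid markers summed to 244 to 1085 CPM and 157 to 403 CPM, with 1 to 4 and 3 to 4 of 14 markers at 0. Stromal and thymic epithelial markers summed to 108 to 197 CPM and 229 to 238 CPM, with 4 to 6 and 8 to 9 of 18 at 0. Of these markers, Pecam1 alone lay at 59.3 to 81.3 CPM in lymphoma and was higher in CD4. The same Trbv segment of the T cell receptor was the most used in lymphomas 34, 70 and 72, which may not be independent. It held 66 of 84, 45 of 73 and 47 of 87 Trbv counts in them. Lymphoma 53 had 9 Trbv counts and lymphomas 56 and 86 had 0, too few to compare their segments. The labels do not say whether samples came from separate animals. The p-values therefore measure the spread between these samples, which may be technical in part. Tissue and group coincide and cannot be told apart, nor can fewer cells of a type be told apart from less RNA per cell.

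The stretches of promoter sequence that follow show what lies upstream of members on which the results turn. Each line gives the 170 bases before the RefSeq transcription start on GRCm38.p6, 5′ to 3′ on the gene's strand. Capitals mark matches, on either strand, to 3 short motifs: CACGTG, the E-box bound by MYC family dimers, CCGGAAG, a core bound by ETS factors, and CATGCGC, part of the site of NRF1, a regulator of nuclear genes for mitochondria. A match is a description of the letters and not a site shown to be bound. The E-box was found upstream of 5 member genes, shown first.
Mrpl2 (chr17:46646051-46646220, plus strand): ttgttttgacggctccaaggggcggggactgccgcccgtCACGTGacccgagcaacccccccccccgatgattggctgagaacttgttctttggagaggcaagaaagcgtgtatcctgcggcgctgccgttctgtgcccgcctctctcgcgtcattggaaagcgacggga
Mrpl20 (chr4:155802708-155802877, plus strand): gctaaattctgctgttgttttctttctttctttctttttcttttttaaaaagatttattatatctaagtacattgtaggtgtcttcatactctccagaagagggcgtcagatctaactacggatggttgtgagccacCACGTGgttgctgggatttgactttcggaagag
Mrpl36 (chr13:73330839-73331008, plus strand): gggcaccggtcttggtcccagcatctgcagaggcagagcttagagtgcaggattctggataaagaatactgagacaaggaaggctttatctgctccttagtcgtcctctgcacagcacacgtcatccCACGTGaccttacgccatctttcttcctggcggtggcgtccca
Mrpl37 (chr4:107066867-107067036, minus strand): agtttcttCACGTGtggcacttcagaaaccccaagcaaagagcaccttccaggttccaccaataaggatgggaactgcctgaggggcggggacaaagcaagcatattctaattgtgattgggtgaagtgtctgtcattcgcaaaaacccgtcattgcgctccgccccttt
Mrps18c (chr5:100798589-100798758, plus strand): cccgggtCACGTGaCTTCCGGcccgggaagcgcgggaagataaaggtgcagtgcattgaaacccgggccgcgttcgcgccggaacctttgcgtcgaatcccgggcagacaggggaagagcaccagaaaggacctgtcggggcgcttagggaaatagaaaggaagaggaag
The remaining stretches show members at both ends of the range of fold changes: Mrpl34 and Mrps22, with an ETS core, were among the largest rises, Mrpl9 and Mrpl32, with the NRF1 part, did not pass the test, and Mrpl12, the largest rise, has none of the 3 motifs in this stretch.
Mrpl34 (chr8:71464756-71464925, plus strand): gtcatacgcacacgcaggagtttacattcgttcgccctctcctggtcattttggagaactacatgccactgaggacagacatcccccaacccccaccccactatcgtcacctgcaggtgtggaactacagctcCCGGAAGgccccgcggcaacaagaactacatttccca
Mrps22 (chr9:98601680-98601849, minus strand): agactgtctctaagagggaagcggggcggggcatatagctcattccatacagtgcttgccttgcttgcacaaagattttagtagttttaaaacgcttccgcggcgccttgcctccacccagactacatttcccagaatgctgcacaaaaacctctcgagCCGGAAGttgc
Mrpl9 (chr3:94443166-94443335, plus strand): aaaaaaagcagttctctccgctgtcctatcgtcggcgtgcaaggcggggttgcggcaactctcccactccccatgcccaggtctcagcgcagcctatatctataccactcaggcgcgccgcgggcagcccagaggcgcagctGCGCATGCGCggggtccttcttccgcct
Mrpl32 (chr13:14613038-14613207, minus strand): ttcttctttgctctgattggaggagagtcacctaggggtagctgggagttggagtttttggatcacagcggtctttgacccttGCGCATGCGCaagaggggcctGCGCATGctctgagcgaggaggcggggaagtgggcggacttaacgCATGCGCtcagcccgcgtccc
Mrpl12 (chr11:120484467-120484636, plus strand): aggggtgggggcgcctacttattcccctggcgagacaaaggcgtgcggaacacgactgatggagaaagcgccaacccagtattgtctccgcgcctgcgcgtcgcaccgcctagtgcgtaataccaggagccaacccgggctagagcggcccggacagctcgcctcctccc

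In these promoters, taken as the 250 bases before each start, 74 promoters of 68 member genes could be matched. Counted by gene, the E-box was upstream of 7.35% of the member genes, 9.61% of the 9849 tested genes with a promoter and 6.86% of all 27025 genes with one, so its share in the members was below that of tested genes. Counted by promoter the shares were 9.46%, 8.03% and 6.02%, since 3 overlapping promoters of Mrpl2 hold the same E-box. The ETS core was upstream of 17 of the 68 member genes, 15.6% of tested genes and 7.83% of all genes. The NRF1 part was upstream of 8 of 68 (11.8%), 6.69% and 3.68%, in the same order. Matches to different motifs can lie side by side, as for the E-box and ETS core of Mrps18c, whose capitals run on after a single lower-case base. Of the tested members, the 5 with an E-box had a median log2 fold change (lymphoma over CD4) of 1.55 with 5 called higher, and the 62 without it had 1.21 with 57 called. The 16 with an ETS core had 1.36 and were all called higher, and the 51 without it had 1.20 with 46 called. The 8 with the NRF1 part had 0.67 with 5 called, and the 59 without it had 1.23 with 57 called. These medians are descriptions and no difference between them was tested.

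Nearly the whole gene family was higher in lymphoma. Of the 75 tested members, 69 rose, 0 fell and 6 did not pass the test (edgeR's quasi-likelihood test, Benjamini-Hochberg adjusted p under 0.05 over 15401 genes). Over all tested genes the same call of a rise was made for 24.7%, and a fall for 21.9%. At an unadjusted p under 0.05, 70 members were higher and 0 lower, and DESeq2 and limma voom also called 0 members lower. A rise of at least 2-fold was called for 54 members, against 17.9% of all tested genes. In 66 members every lymphoma library lay above every CD4 library, against 22.6% of all tested genes. The median log2 fold change of the tested members was 1.23, a 2.34-fold difference, with quartiles of 0.96 and 1.52. It was 0.04 over all tested genes and 0.09 over the 11310 tested genes within the members' range of mean CPM. Without CD4 2 the count of rises was 59 and without CD4 3 it was 60, and the median was then 1.24 and 1.23.

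**Figure D1:**
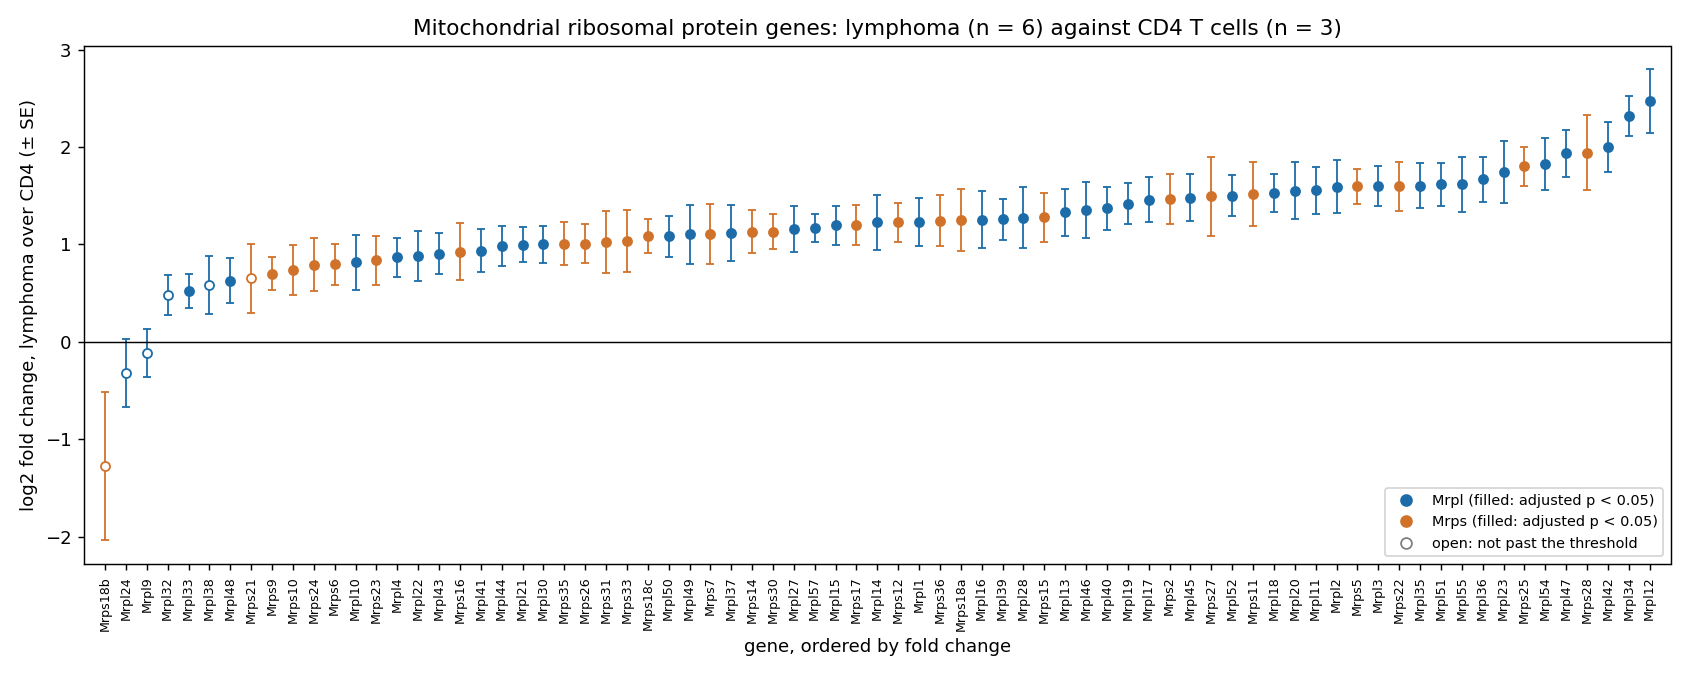
Log2 fold change of each tested mitochondrial ribosomal protein gene (lymphoma, n = 6, over CD4, n = 3) with its standard error, ordered by size, Mrpl in blue and Mrps in orange, filled where the adjusted p was under 0.05. The points run from -1.27 for Mrps18b to 2.47 for Mrpl12, and 72 of the 75 lie above 0.

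Members of both subunits rose. Of 47 tested Mrpl genes, 43 rose and the median log2 fold change was 1.26. Of 28 tested Mrps genes, 26 rose and the median was 1.12. Grouping the proteins by where structures place them, and not by name, gave 45 of 49 and a median of 1.25 for the large subunit, and 23 of 25 and 1.08 for the small subunit. Proteins with a bacterial counterpart and those found only in mitochondria were compared in the same way: 42 of 46 rose among the former (median 1.23) and 26 of 28 among the latter (median 1.13). Split by subunit, 27 of 30 large subunit genes with a bacterial counterpart rose (median 1.30) and 18 of 19 without one (median 1.17). In the small subunit 15 of 16 rose (median 1.12) and 8 of 9 (median 1.03), the last count being 5 without CD4 2. No difference between these classes was tested.

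The largest rise among the large subunit genes was that of Mrpl12 (ENSMUSG00000039640, chr11:120484613-120489065 on GRCm38), which encodes the stalk protein that contacts translation factors. Its level was 120.6 CPM in the lowest lymphoma, 149 CPM at the median and 292 CPM in the highest, and 21.8, 37.9 and 30.8 CPM in CD4 1, 2 and 3. The groups did not overlap, and lymphoma 53 stood well above the other lymphomas. Its log2 fold change was 2.47 (SE 0.324, edgeR adjusted p 8.25e-05), a 5.55-fold difference. Mrpl34 (chr8:71464959-71465747) encodes a small protein of the large subunit with a bacterial counterpart. It lay at 202 to 337 CPM in the lymphomas, with a median of 261 CPM, and at 53.9, 52.3 and 48.2 CPM in CD4. The CD4 libraries were close together and the lymphomas all far above them, and the log2 fold change was 2.32 (SE 0.203, edgeR adjusted p 4.4e-06).

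Mrpl42 (chr10:95480805-95501940) encodes a protein found only in mitochondrial ribosomes. It ran from 97.8 to 184.5 CPM in lymphoma (median 127 CPM), against 37.5, 29.8 and 35.4 CPM in CD4. Lymphomas 53 and 86 were its highest libraries, and its fold change was 4.0. Mrpl47 (chr3:32725397-32737605), a protein with a bacterial counterpart near the exit of the peptide tunnel, lay at 51.2 to 109 CPM in lymphoma (median 71.2 CPM) and at 20.6, 19.2 and 17.9 CPM in CD4. Mrpl54 (chr10:81264713-81266934), another mitochondria-specific protein, lay at 88.9 to 152 CPM (median 111 CPM) and at 38.8, 20.9 and 37.7 CPM. For these 3 genes no lymphoma overlapped with CD4. Their log2 fold changes were 2.0, 1.94 and 1.83, with edgeR adjusted p-values of 7.89e-05, 6e-05 and 0.000185. Mrpl47 shares 24.2% of its exon bases with Actl6a and Ndufb5, while 0% of its last 500 bases lie in exons of other genes.

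Among the genes named for the small subunit, Mrps28 (chr3:8802146-8923918), whose product is related to the bacterial protein bS1, had the largest rise. It lay at 19.5 to 60.4 CPM in lymphoma (median 26.1 CPM) and at 9.64, 5.88 and 9.27 CPM in CD4. The groups did not overlap, and lymphoma 86 was the highest library. The log2 fold change was 1.94 (SE 0.384, edgeR adjusted p 0.00145). Mrps25 (chr6:92169525-92184033), a mitochondria-specific protein, lay at 57.6 to 97.7 CPM in lymphoma (median 82.2 CPM) and at 25.7, 19.3 and 23.7 CPM in CD4, so that the log2 fold change was 1.80 (SE 0.202, edgeR adjusted p 2.56e-05). All of the last 500 bases of the Mrps25 gene body lie in exons of other genes when strand is ignored. Of its exon bases, 69.8% are shared with Nr2c2. The strand setting of the counting is not given in the sources used here, so the value of Mrps25 is uncertain.

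Mrps22 (chr9:98588730-98601660), a mitochondria-specific protein in which human variants cause mitochondrial disease, lay at 37.6 to 63.1 CPM in lymphoma (median 43.0 CPM) and at 13.1, 14.2 and 20.1 CPM in CD4. Mrps5 (chr2:127587222-127606829), a protein with a bacterial counterpart, lay at 226 to 360.1 CPM (median 273 CPM) and at 97.0, 92.2 and 87.2 CPM. Mrps11 (chr7:78783119-78792989), also with a bacterial counterpart, lay at 20.4 to 51.1 CPM (median 28.9 CPM) and at 14.8, 8.04 and 9.17 CPM. In each of these 3 genes the lowest lymphoma was above the highest CD4 library, and for Mrps11 the distance between them was small beside the spread of the lymphomas. The log2 fold changes were 1.60, 1.60 and 1.52, with edgeR adjusted p-values of 0.000321, 2.69e-05 and 0.00269. Mrps12 (chr7:28739641-28741820), the counterpart of the bacterial decoding protein in which streptomycin resistance arises, lay at 57.6 to 103 CPM (median 72.9 CPM) against 33.8, 30.5 and 31.7 CPM, so that the log2 fold change was 1.23 (SE 0.203, edgeR adjusted p 0.000438).

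**Figure D2:**
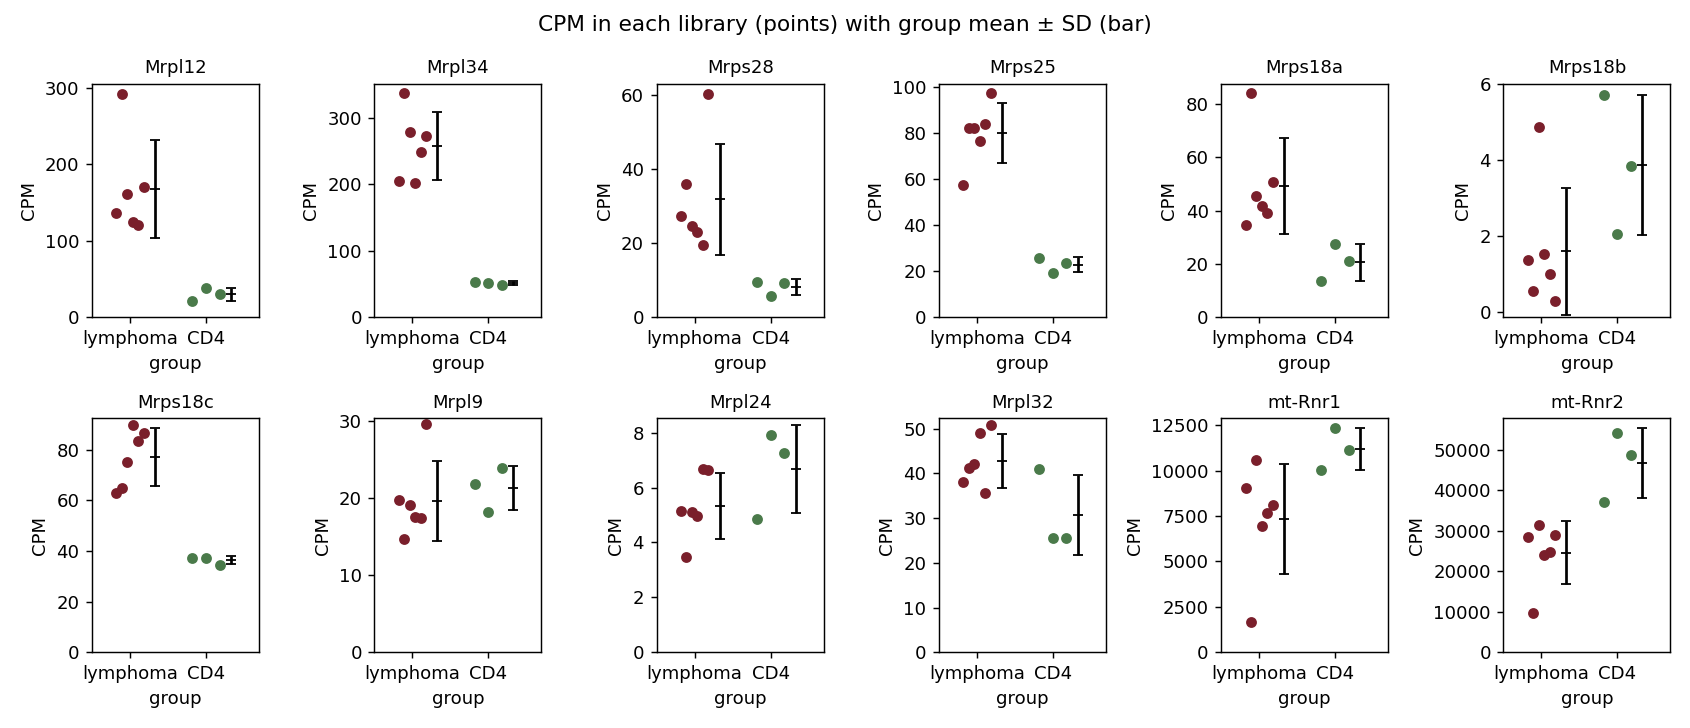
CPM in each library for 10 member genes and the mitochondrial rRNAs mt-Rnr1 and mt-Rnr2 (y axis, CPM, linear; points are libraries, bars the group mean ± SD, lymphoma n = 6 and CD4 n = 3). Mrpl34 lies at 202 to 337 CPM in lymphoma and 48.2 to 53.9 CPM in CD4, whereas the groups overlap for Mrpl9, Mrpl24, Mrpl32 and Mrps18b.

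There were 6 tested members that did not pass the test. Mrpl9 (chr3:94443318-94451130), a large subunit protein with a bacterial counterpart, lay at 14.6 to 29.5 CPM in lymphoma (median 18.3 CPM) and at 21.9, 18.1 and 23.9 CPM in CD4. The groups overlapped, and the log2 fold change was -0.12 (SE 0.247, edgeR adjusted p 0.73). Mrpl24 (chr3:87919506-87923672), a protein at the tunnel exit, lay at 3.47 to 6.68 CPM (median 5.13 CPM) and at 4.87, 7.92 and 7.25 CPM, and the log2 fold change was -0.32 (SE 0.349, edgeR adjusted p 0.483). All of the last 500 bases of its gene body lie in exons of other genes, and 26.3% of its exon bases are shared with Rrnad1. Mrpl32 (chr13:14608184-14613165), known as a substrate of the mitochondrial m-AAA protease, lay at 35.5 to 50.8 CPM (median 41.7 CPM) and at 40.9, 25.4 and 25.6 CPM. CD4 1 was the control library that overlapped, and the log2 fold change of 0.48 (edgeR adjusted p 0.078) became 0.76 (adjusted p 0.0128) without it. Mrpl38 (chr11:116131817-116138868), named here after its values were seen because it completes the 6 genes that did not pass, had a log2 fold change of 0.58 (edgeR adjusted p 0.133). Its level was 84.3 CPM in lymphoma 53 and 32.6 to 56.8 CPM in the other lymphomas, against 28.5, 32.0 and 35.0 CPM in CD4.

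On the small subunit side, Mrps21 (chr3:95862634-95871519) lay at 22.5 to 45.6 CPM in lymphoma (median 24.1 CPM) and at 30.3, 12.6 and 10.7 CPM in CD4. Its log2 fold change was 0.65 (edgeR adjusted p 0.154), and without CD4 1 it was 1.28 (adjusted p 0.00893). Mrps9 and Mrps10, both with bacterial counterparts, had the smallest rises that passed among the Mrps genes. Over all members the smallest was that of Mrpl33, named after its values were seen (0.52, edgeR adjusted p 0.0293). Mrps9 (chr1:42851233-42905683) lay at 78.7 to 120.0 CPM (median 93.7 CPM) against 57.7, 56.6 and 63.4 CPM, a log2 fold change of 0.70 (edgeR adjusted p 0.00485). Mrps10 (chr17:47368887-47381417) lay at 20.6 to 40.9 CPM (median 27.3 CPM) against 14.9, 20.5 and 14.3 CPM, a log2 fold change of 0.74 (edgeR adjusted p 0.0338). The lowest lymphoma and the highest CD4 library were nearly level for Mrps10, and its call was lost without CD4 1 (adjusted p 0.0881) and without CD4 3 (adjusted p 0.114). Members that passed with overlapping libraries were Mrpl48, Mrps31 and Mrps33, picked out after their values were seen, with log2 fold changes of 0.63, 1.03 and 1.04.

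The 3 paralogs of the Mrps18 family sit in different places in the ribosome, and 2 of them rose. Mrps18a (chr17:46110986-46128910), which structures place in the large subunit as mL66, lay at 34.6 to 84.0 CPM in lymphoma (median 43.6 CPM) and at 13.6, 27.5 and 21.0 CPM in CD4, so that the log2 fold change was 1.25 (SE 0.315, edgeR adjusted p 0.00645). Mrps18c (chr5:100798627-100804471), the paralog at the bacterial S18 position, lay at 62.7 to 89.6 CPM (median 79.3 CPM) against 37.2, 37.3 and 34.6 CPM, so that the log2 fold change was 1.08 (SE 0.175, edgeR adjusted p 0.000372). For both, every lymphoma was above every CD4 library. Mrps18b (chr17:35910379-35916389), the small subunit protein mS40, was low throughout. It lay at 0.289 to 4.88 CPM in lymphoma (median 1.17 CPM) and at 5.73, 2.04 and 3.85 CPM in CD4. Lymphoma 56 alone overlapped with CD4 at the top of the lymphoma range, and the log2 fold change was -1.27 (SE 0.763, edgeR adjusted p 0.194). Without lymphoma 56 it was -1.99 with an adjusted p of 0.0337, the only fall called for a member in any alternative run. All of the last 500 bases of the Mrps18b gene body lie in exons of other genes when strand is ignored. Of its exon bases, 30.5% are shared with Gm16279, so its counts are uncertain. Mrps18c shares 23.2% of its exon bases with Gm43511, while 0% of its last 500 bases lie in exons of other genes. The difference between the paralogs was not tested.

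Besides Mrps18a, the genes Mrps30 and Mrps36 carry small subunit names without being small subunit proteins. Mrps30 (chr13:118378381-118387252), found in the large subunit as mL65, lay at 57.4 to 74.2 CPM in lymphoma (median 66.9 CPM) and at 30.3, 25.6 and 35.0 CPM in CD4, so that the log2 fold change was 1.13 (SE 0.176, edgeR adjusted p 0.00028). Mrps36 (chr13:100735955-100744659), now known as a subunit of the 2-oxoglutarate dehydrogenase complex and not of the ribosome, lay at 13.4 to 17.8 CPM (median 14.9 CPM) against 6.58, 7.68 and 4.95 CPM, so that the log2 fold change was 1.24 (SE 0.263, edgeR adjusted p 0.00224). Pseudogenes of Mrps36 exist, and reads that align to several places are in no gene's count.

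Members that were not tested were nearly without reads. Mrpl53 (chr6:83109040-83109939) had 0 to 3 counts per lymphoma library and 0 in each CD4 library. Mrps34 (chr17:24895116-24897502) had 6 counts in lymphoma 56 and 0 or 1 in each of the others. A second row named Mrps23 (ENSMUSG00000098375) had 0 counts in all 9 libraries, which allows up to 3 counts in each, while the first Mrps23 row was tested. Of the last 500 bases of the gene body, 83.6% for Mrpl53 and 83.8% for Mrps34 lie in exons of other genes. Mrpl53 shares exon bases with Ccdc142os and Gm42688, and Mrps34 with Mapk8ip3 and Nme3. Reads that overlapped more than 1 gene were kept in a separate row of the table, which held 4.12% ± 0.490 (SD, n = 6) of lymphoma reads and 5.43% ± 0.655 (SD, n = 3) of CD4 reads. The part of this sharing in the low counts was not tested. No fold change is given for these genes. In all, 32 members, untested ones included, shared exon bases with another gene. Of these 27 were called, beside 69 of all 75 tested members. Exon sharing was not calculated for genes other than the members.

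Summed over the 78 genes, the level was 4867, 7481, 5771, 5276, 4958 and 6715 CPM in lymphomas 34, 53, 56, 70, 72 and 86, and 2559, 2250 and 2397 CPM in CD4 1, 2 and 3. This was 0.500% to 0.733% of gene counts in the lymphomas and 0.232% to 0.260% in CD4. The group means differed 2.43-fold, and the groups did not overlap. The Mrpl sum was 3243 to 5065 CPM in lymphoma (mean 3909 ± 726 SD, n = 6) and 1436 to 1650 CPM in CD4 (mean 1533 ± 108 SD, n = 3), a 2.55-fold difference of means. The Mrps sum was 1624 to 2417 CPM (1936 ± 328 SD, n = 6) and 813 to 909.1 CPM (869 ± 49.5 SD, n = 3), a 2.23-fold difference. The sum of Mrpl over the sum of Mrps was 1.996, 2.10, 2.05, 2.08, 1.91 and 1.97 in the lymphomas in the same order, and 1.82, 1.77 and 1.71 in CD4. Every lymphoma was above every CD4 library in this ratio, with means of 2.02 ± 0.0713 (SD, n = 6) and 1.77 ± 0.0505 (SD, n = 3). The ratio follows gene names, so Mrps18a, Mrps30 and Mrps36 count under Mrps. It leaves out 6 mitochondrial ribosome genes with other names, which summed to 518 to 1104 CPM in lymphoma and 296 to 352 CPM in CD4. A ratio of the subunits by structure was not calculated. A few strongly expressed genes carry much of such sums. Without the 3 highest genes of each subunit (Mrpl52, Mrpl34 and Mrpl33, and Mrps23, Mrps5 and Mrps15) the means were 2.34 and 1.99, with the lowest lymphoma at 2.16 and the highest CD4 library at 2.04. A sum over members was given no test.

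**Figure D3:**
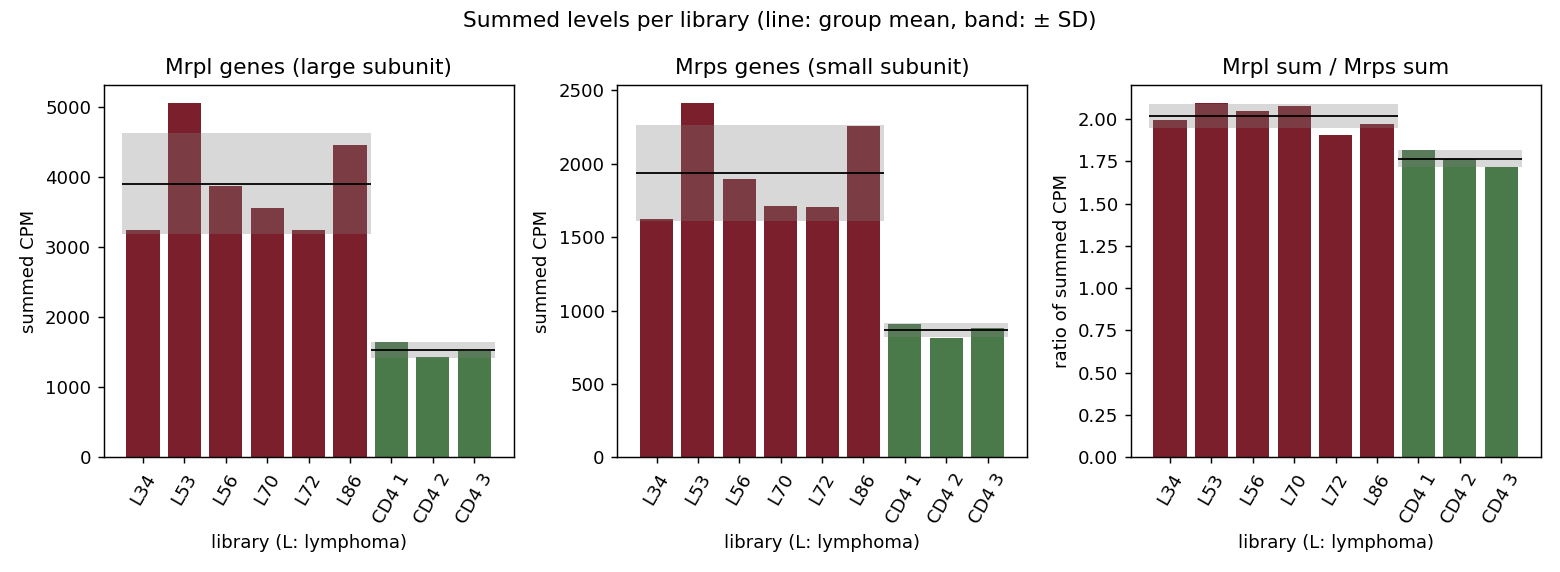
Summed CPM of the Mrpl genes (left), of the Mrps genes (middle) and their ratio (right) in each library, as bars from 0, with the group mean as a line and ± SD as a band. The Mrpl sum is 3243 to 5065 CPM in the 6 lymphomas and 1436 to 1650 CPM in the 3 CD4 libraries, and the ratio is 1.91 to 2.10 against 1.71 to 1.82.

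The lymphomas also differed among themselves. The median over members of the log2 level minus the CD4 mean was 0.93, 1.69, 1.22, 1.12, 0.98 and 1.38 in lymphomas 34, 53, 56, 70, 72 and 86. Lymphoma 53 was the highest of the 6 for 40 members and lymphoma 86 for 26, while lymphoma 72 was the lowest for 31 and lymphoma 34 for 22. In each lymphoma 68 to 73 of the 75 tested members were above all 3 CD4 libraries. The matching share of all tested genes was not calculated for single lymphomas, so this count is a description only. The median over members of the within-group SD was 0.33 log2 units in lymphoma, 0.25 without lymphoma 53 and 0.23 in CD4, against 0.47, 0.34 and 0.36 over all tested genes. Relative to the mean of the other lymphomas, lymphoma 53 was highest for Mrpl28 (1.20 log2 units), Mrps7 (1.15) and Mrps16 (1.14), and lowest for Mrps18b (-1.05), Mrpl24 (-0.68) and Mrps2 (-0.68), all picked out after their values were seen. Lymphoma 53 also had the fewest gene counts of the lymphomas (11170704) and the highest T cell marker sum (3710 CPM, against 1998 to 2537 CPM in the others). Its Cd8a level was 29.4 CPM, against 0.0645 to 1.53 CPM in the other lymphomas. The part of these differences in its member levels was not tested. Without lymphoma 53 all 69 rises were still called and the median of the members was 1.12.

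**Figure D4:**
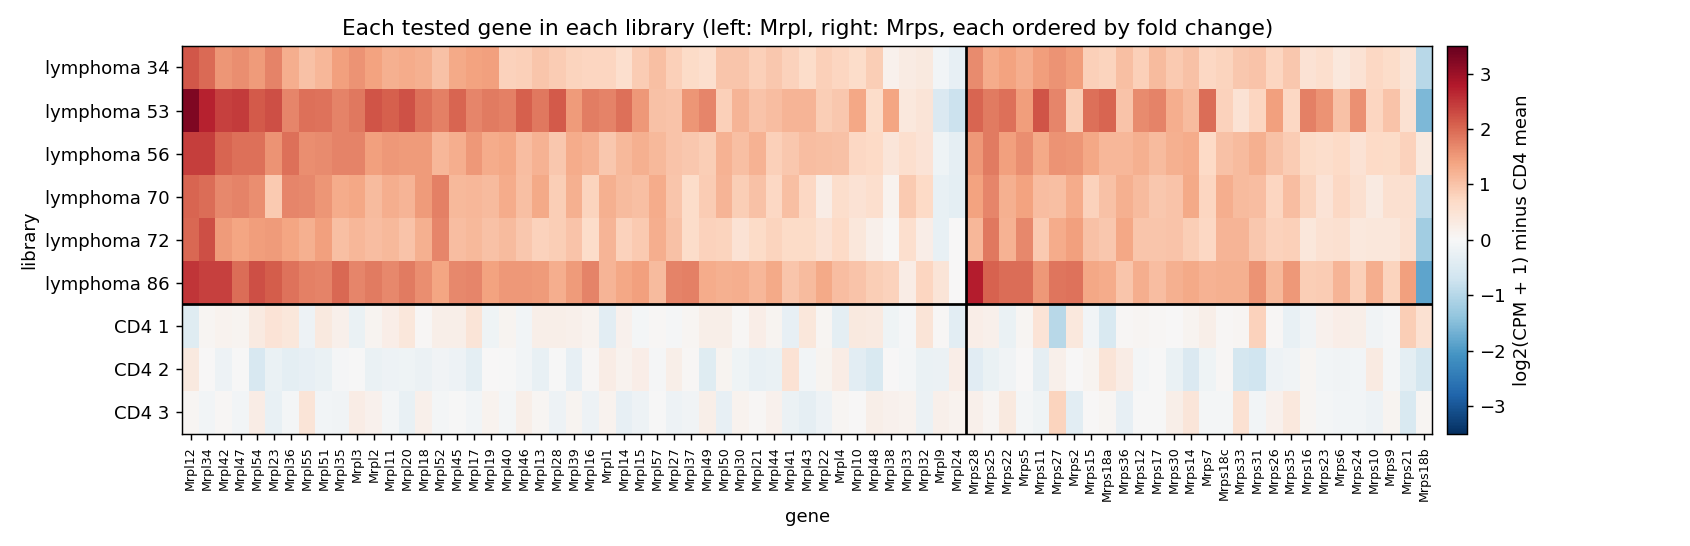
Level of each tested member in each library, as log2(CPM + 1) minus the mean of the CD4 libraries (colour), with lymphomas above the line and CD4 below it, Mrpl genes on the left and Mrps genes on the right. Lymphomas 53 and 86 are the darkest rows, being the highest of the 6 for 40 and 26 members, and Mrpl9, Mrpl24 and Mrps18b are pale or blue.

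Other proteins of the mitochondrial ribosome have symbols that do not start with Mrp. Of 6 such genes, Dap3, Chchd1 and Aurkaip1, all small subunit proteins, rose with log2 fold changes of 1.40, 1.59 and 0.86, and the median was 0.74. Chchd1 lay at 129 to 467 CPM in lymphoma (median 194 CPM) and at 77.1, 74.9 and 72.7 CPM in CD4 (edgeR adjusted p 0.00435). Ptcd3, Ict1 and Gadd45gip1 had 0.61, 0.60 and 0.10 and did not pass.

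Genes that work with the ribosome were called in part. Among 14 mitochondrial translation factors 7 rose, 0 fell and the median was 0.71. At an unadjusted p under 0.05, 9 were higher and 1 lower, and DESeq2 called 1 lower. Lrpprc, which stabilises mitochondrial mRNAs, had the largest rise, from 34.2, 58.2 and 57.1 CPM in CD4 to 133 to 258 CPM in lymphoma (log2 fold change 1.84, edgeR adjusted p 0.000174). Its partner Slirp rose by 1.42 (edgeR adjusted p 0.000159), the largest rise among 16 genes of mitochondrial DNA replication and RNA metabolism, of which 7 rose, 0 fell and the median was 0.77. In that list 8 were higher and 0 lower at an unadjusted p under 0.05, and DESeq2 and limma voom called 0 lower. Among 20 mitochondrial aminoacyl tRNA synthetases 9 rose, 0 fell and the median was 0.64. No synthetase was lower at an unadjusted p under 0.05, where 12 were higher, and neither DESeq2 nor limma voom called one lower. Among 27 assembly factors 16 rose, 2 fell and the median was 0.86. C1qbp, a matrix protein needed for mitochondrial translation, lay at 284 to 674 CPM in lymphoma (median 406 CPM) and at 106, 66.6 and 62.5 CPM in CD4, and its log2 fold change was 2.43 (SE 0.317, edgeR adjusted p 8.13e-05). The falls were Mterf3 (-1.33, edgeR adjusted p 0.00585) and Nsun4 (-1.05, edgeR adjusted p 0.0013), the latter an rRNA methyltransferase. Other rRNA methyltransferases of the list were named after their values were seen. Mrm1, Ftsj2 and Rnmtl1 rose by 0.79, 1.17 and 0.86 (edgeR adjusted p 0.012, 0.0406 and 0.0232). Tfb1m and Mettl15 had log2 fold changes of 1.73 and 1.14 and did not pass (edgeR adjusted p 0.0821 and 0.0633). The count of assembly factors that rose was 10 without CD4 2 and 10 without CD4 3.

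The RNAs encoded in mitochondrial DNA were mostly not called. Of 13 mitochondrial mRNAs 1 rose and 0 fell, with a median log2 fold change of 0.02, and 0 were called lower by DESeq2 or limma voom. With the rRNAs included, 1 of 15, mt-Rnr2, was lower at an unadjusted p under 0.05. The summed level of the 13 mRNAs was 41190 to 86290 CPM in lymphoma and 51030 to 75770 CPM in CD4, and the groups overlapped. mt-Nd3, a subunit of complex I, was the single rise (0.40, edgeR adjusted p 0.0369), and its adjusted p was 0.0593 without CD4 2 and 0.147 without CD4 3. Its call was also lost with RLE or upper quartile scaling, without a filter and under a minimum of 10 counts for each library. The offset for GC content and length gave 1.06 for mt-Nd3 (adjusted p 0.00165) and made mt-Nd1 a called rise (0.67, adjusted p 0.0127). The other complex I genes were at 0.31 (mt-Nd1), -0.34 (mt-Nd2), 0.07 (mt-Nd4), -0.14 (mt-Nd4l), -0.32 (mt-Nd5) and 0.31 (mt-Nd6), with edgeR adjusted p-values from 0.251 to 0.852. mt-Cytb of complex III was at 0.02, the complex IV genes mt-Co1, mt-Co2 and mt-Co3 at -0.34, 0.08 and 0.12, and the ATP synthase genes mt-Atp6 and mt-Atp8 at -0.13 and -0.19, all with edgeR adjusted p-values of at least 0.418. The signs of mt-Nd4, mt-Co2 and mt-Cytb turned under at least 1 other scaling of the libraries.

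Counts of the rRNAs around which the proteins assemble were lower or did not pass. The libraries profile transcript 3′ ends, so these counts need not follow the amount of rRNA in ribosomes, which was not measured. mt-Rnr2, the large subunit rRNA, lay at 9809 to 31490 CPM in lymphoma (median 26580 CPM) and at 37190, 54280 and 48870 CPM in CD4. All lymphomas were below all CD4 libraries, and the log2 fold change was -0.93 (SE 0.288, edgeR adjusted p 0.0199). The adjusted p was 0.0903 without CD4 2, 0.067 without CD4 3 and 0.0545 with lymphomas 34, 70 and 72 averaged, and the offset for GC content and length gave a log2 fold change of -0.40 with an adjusted p of 0.182. mt-Rnr1, the small subunit rRNA, lay at 1670 to 10560 CPM (median 7886 CPM) and at 10030, 12340 and 11150 CPM, for a log2 fold change of -0.61 (edgeR adjusted p 0.25). Lymphoma 53 was lowest for both rRNAs and highest in the summed level of the protein genes. Without it mt-Rnr1 was at -0.40 with an adjusted p of 0.0348.

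Nuclear genes for oxidative phosphorylation, whose complexes join with the mitochondrially encoded subunits, were also mostly higher. Of 73 such genes 67 rose, 0 fell and the median was 1.24, and 0 were lower at an unadjusted p under 0.05 or by DESeq2 or limma voom. Ndufc2, a complex I subunit, had the largest rise (2.36, edgeR adjusted p 7e-06). Of the cytosolic ribosomal protein genes, 35 of 79 rose, 1 fell and the median was 0.46. Rps2 led the rises (1.25, edgeR adjusted p 0.00176) and Rps27 fell (-1.14, edgeR adjusted p 0.000837). Without CD4 2 the count of rises was 16 and the median 0.31. Of 40 nucleolar ribosome biogenesis genes 36 rose, 0 fell and the median was 1.55, with Nop16 at 2.59 (edgeR adjusted p 4.42e-05), and again 0 were lower at an unadjusted p under 0.05, by DESeq2 or by limma voom. No difference between these lists and the mitochondrial ribosomal protein genes was tested.

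**Figure D5:**
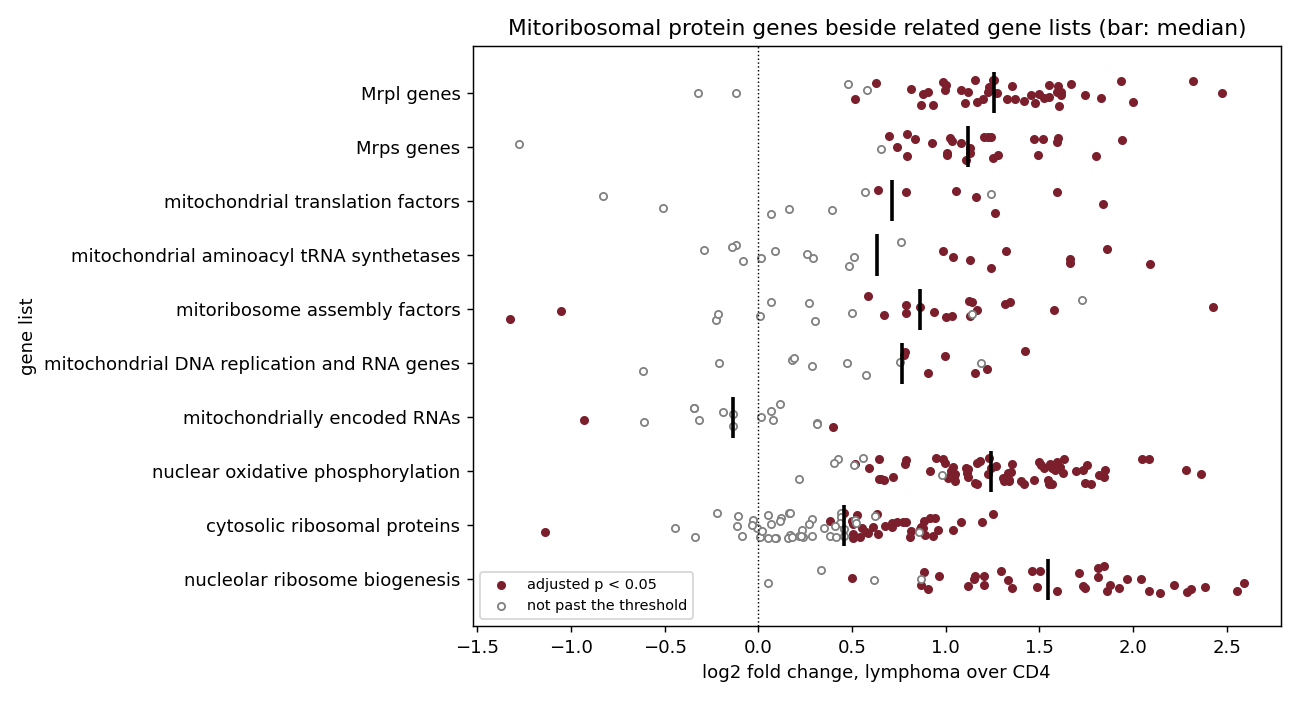
Log2 fold change (x axis, lymphoma over CD4) of each tested gene in 10 lists (y axis), filled where the adjusted p was under 0.05, with the list's median as a bar. The medians are 1.26 and 1.12 for Mrpl and Mrps genes, 1.24 for nuclear oxidative phosphorylation, 0.46 for cytosolic ribosomal proteins and -0.13 for the 15 mitochondrially encoded RNAs.

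Markers of growth and of other cells were compared between the same groups. Over all tested genes a rise was called for 24.7% and a fall for 21.9%. With all libraries in the fit, the shares of T cell, erythroid and stromal markers called were near or below these. All 29 proliferation genes rose, with a median of 3.47, and their sum was 5138 to 6950 CPM in lymphoma and 579 to 736 CPM in CD4. Cdc6, which licenses DNA replication, had the largest rise (4.54, edgeR adjusted p 1.11e-06). Of the 20 B cell markers 20 fell (median -6.48), with Fcer2a the most (-8.97, edgeR adjusted p 2.24e-07). Of 20 myeloid markers 11 fell, or 7 without CD4 2 and 7 without CD4 3, led by Ctss (-3.80, edgeR adjusted p 6.03e-06). Of 11 T cell markers 2 fell, or 5 without lymphoma 53, and Cd4 was at -2.76 (edgeR adjusted p 0.0111). Of 12 tested erythroid markers 2 rose and 1 fell, with Hemgn at 10.7 to 43.7 CPM in lymphoma and at most 0.763 CPM in CD4, and Gata1 at -3.31 (edgeR adjusted p 0.00379). Of 8 tested stromal markers 2 rose and 1 fell: Dcn lay at 1.72 to 7.36 CPM in lymphoma with 0 counts in every CD4 library, and Pecam1 was at -1.59 (edgeR adjusted p 6.67e-06). The part of proliferation and of other cell types in the levels of the mitochondrial ribosomal protein genes was not tested.

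The annotation placed 77 members on 17 chromosomes, with 10 on chromosome 11, the most for any. Neighbours were protein-coding genes on the other strand that start within 1000 bases upstream, without overlap at the starts. Such a gene lay beside 17 of the 75 tested members (22.7%) and beside 1266 of 12154 tested protein-coding genes (10.4%). Of the 16 tested neighbours that are no members, 7 rose, 3 fell and their median log2 fold change was 0.03, while the members beside them had a median of 1.14. Members without such a neighbour had 1.24. Mrps12 starts 172 bases from Sars2, the mitochondrial seryl tRNA synthetase, which rose by 1.04 (edgeR adjusted p 0.0143). Mrpl32 starts 75 bases from the proteasome gene Psma2, which rose by 1.01 (edgeR adjusted p 0.00262). Mrps18b starts 45 bases from Ppp1r10, which encodes a regulator of protein phosphatase and fell by 0.89 on the log2 scale (edgeR adjusted p 0.00408). Mrpl54 and Mrps5 rose beside Apba3 (-0.01) and Zfp661 (-0.24), which did not pass. Mrpl46 and Mrps11 overlap at their starts in opposite directions and so were not counted as neighbours. Both rose, by 1.35 and 1.52.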

How the data were processed

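Transcript 3′ ends were sequenced in 6 lymphoma and 3 CD4 libraries. The authors deposited raw read counts per Ensembl gene. FastQC, HISAT2, SAMtools and HTSeq and the builds mm10 and GRCm38 are named by the submitters' processing notes; versions, annotation release and strand setting are not given in the sources used here. The 5 summary rows (reads in no feature 19.9% in lymphoma and 32.2% in CD4) stayed out of the library sizes and of all tests. Columns without a matching sample numbered 0. Reads aligned to several places enter no count, so near-identical copies are uncertain.

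From the counts, edgeR 4.0.16 (R 4.3.3) kept 15401 genes by filterByExpr with a minimum count of 10, scaled with TMM and tested all 9 libraries with glmQLFit (robust) and glmQLFTest. Adjusted p is Benjamini-Hochberg over all 15401 genes, called under 0.05. Log2 levels used a prior count of 2. Standard errors are the absolute log2 fold change over the square root of F. CPM is per 1000000 counts of the TMM-scaled library. The procedure was tested on simulated data. Alternatives used DESeq2 1.42.0 and limma 3.58.1, other scalings and filters, a stricter threshold, each library left out, lymphomas 34, 70 and 72 averaged, and an offset for GC content and length. Positions come from GENCODE M21 and promoters from RefSeq, both on GRCm38.

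The members and gene lists were chosen with earlier results of these data known. Named genes are, per subunit, the 5 largest rises past the threshold (average log2 CPM of at least 3, no overlap), the 3 fold changes closest to 0, the untested members, Mrpl12, Mrps12, Mrps18a, Mrps18b, Mrps18c, Mrps30 and Mrps36, the largest rise and fall of each companion list, and all mitochondrially encoded RNAs. The second Mrps23 row has no position in the annotation used.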

Additional observations from a re-analysis of the deposited data

Results flagged for a closer look

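In the group of 6 lymphomas, a library was marked when its gap to the nearest other library was large beside the range of the whole group. Of 65 values examined, 14 met this. A count of 3.25 would be expected for independent values with a normal spread. Genes measured in the same libraries are not independent, so no excess over chance is claimed. Among the 75 tested members, 14 had such a library, and in 9 of them it was lymphoma 53, on the high side.

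Lymphoma 53 stood above the others for Mrpl12 (292 CPM, the next at 170 CPM, gap 0.71 of the range), Mrps11 (51.1 and 31.5 CPM, 0.64), Mrps18a (84.0 and 50.6 CPM, 0.675), Chchd1 (467 and 217 CPM, 0.74) and the endothelial gene Pecam1 (81.3 and 64.8 CPM, 0.747). It stood below them for mt-Atp6 (1672 CPM, the next at 4577 CPM, 0.736) and mt-Rnr2 (9809 and 24000 CPM, 0.655). Lymphoma 86 stood above for Mrpl9 (29.5 and 19.7 CPM, 0.662), Mrps21 (45.6 and 28.7 CPM, 0.733) and Mrps10 (40.9 and 28.0 CPM, 0.633). Lymphoma 56 stood above for Mrps18b (4.88 and 1.53 CPM, 0.729), Mrps34 (0.437 and 0.0613 CPM, 0.86) and the B cell gene Fcer2a (0.218 and 0.0722 CPM, 0.669), and lymphoma 34 for Mrpl53 (0.193 and 0.0655 CPM, 0.662). The last 3 of these rest on 6 counts or fewer.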

How the results depend on the processing

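The count of members that rose was 58 to 69 over 19 alternatives, the lowest with an adjusted p under 0.01, and 59 to 69 when 1 library was left out. Of the 69 members, 57 were called in all 19, and 75 of 75 kept their sign in the 3 other scalings. The median of all tested genes stayed within 0.1 of 0 in every alternative except the unfiltered table, where it was 0.20, and the members' median there was 1.25. No paired analysis was possible because the label numbers of the groups share none. Mrpl53, Mrps34 and the second Mrps23 row had too few counts for a test and Mrps18b was low in both groups. Intervals for low counts cover counting error only. The causes of the changes below were not tested.

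Leaving out 1 library gave 0 to 1 members, Mrps genes and mitochondria-specific small subunit genes called lower (Mrps18b without lymphoma 56), 5 to 8 mitochondria-specific small subunit genes higher, 0 to 1 translation factors lower, 10 to 17 assembly factors higher, 0 to 1 mitochondrially encoded RNAs higher and 0 to 2 lower. Cytosolic ribosomal proteins were then higher for 16 to 38 genes and lower for 1 to 3, with a median of 0.305 to 0.557. T cell markers were higher for 0 to 1 and lower for 2 to 5, and myeloid markers higher for 0 to 1 and lower for 7 to 12.

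An adjusted p under 0.01 gave 7 assembly factors, 4 mitochondrial DNA and RNA genes, 5 mitochondria-specific small subunit genes and 16 cytosolic ribosomal proteins higher, 0 mitochondrially encoded RNAs higher and 0 lower, and 1 T cell and 6 myeloid markers lower. Translation factors lower were 1 with RLE scaling, upper quartile scaling, library size alone, DESeq2 and a minimum of 10 counts in all libraries. Mitochondrially encoded RNAs higher were 0 with RLE or upper quartile scaling, no filter or at least 10 counts, and 2 with the GC and length offset. Those lower were 0 with that offset and with lymphomas 34, 70 and 72 averaged. Cytosolic ribosomal proteins lower were 2 with RLE or upper quartile scaling, DESeq2, at least 10 counts or the offset, which gave 23 higher and a median of 0.261. T cell markers lower were 4 with upper quartile scaling, limma voom or the offset, and 1 was higher with DESeq2 and with lymphomas averaged. The median of B cell markers was -6.694 with limma voom and -6.207 with the offset, and 8 were lower with a median of -4.615 at 10 counts or more in every library, where fewer genes were tested. Erythroid markers were then higher for 1 and lower for 0, and stromal markers higher for 1, while 2 stromal markers were lower without a filter. Without the 3 highest genes of each subunit the ratio of Mrpl to Mrps sums was 2.341 in lymphoma and 1.987 in CD4.

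Signs turned for mitochondrially encoded RNAs, none of them past the threshold. With the offset for GC content and length the log2 fold change was 0.112 for mt-Nd2, 0.042 for mt-Nd4l, 0.134 for mt-Nd5, 0.275 for mt-Atp6 and 0.539 for mt-Atp8. With upper quartile scaling it was -0.035 for mt-Nd4, -0.026 for mt-Co2 and -0.084 for mt-Cytb. mt-Cytb was also at -0.042 with RLE scaling and DESeq2, -0.03 with library size alone, -0.031 with limma voom and -0.047 when all libraries had to hold at least 10 counts. Leaving out 1 library gave -0.125 to 0.277 for mt-Nd4 (-0.026 without lymphoma 56), -0.382 to 0.121 for mt-Nd4l, -0.046 to 0.223 for mt-Co2, -0.252 to 0.034 for mt-Atp6 and -0.131 to 0.158 for mt-Cytb (-0.044 without lymphoma 56, -0.02 without 72 or 86).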

Other observations

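The rows left out of the gene family as pseudogenes held few reads except Mrpl23-ps1. Its counts were 72 to 183 per lymphoma, highest in lymphoma 53, and 11, 55 and 43 in CD4 1, 2 and 3. Mrpl48-ps, Mrps36-ps1, Mrps36-ps2 and Mrps36-ps3 had at most 15 counts in any library.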
